A study of Mus musculus with 31 samples.

Results

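Fmr1 encodes FMRP, the RNA-binding protein whose loss causes fragile X syndrome. The splicing of Fmr1 was followed here in the cortex of mice from 3 Huntington's disease (HD) lines and of their wild types. All events listed under the symbols Fmr1, Fxr1 or Fxr2, older spellings included, were taken as members, because Fxr1 and Fxr2 encode the autosomal relatives of FMRP. Of 1922 events listed in any of the 3 lines, 2 were members. Both belonged to Fmr1 and both were measured in all 31 mice. Fxr1 and Fxr2 had 0 events in these lists. The gene was chosen by its short to long count ratios in these same comparisons, so its values are given below as a description.

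The mice carried expanded CAG repeats, which encode polyglutamine in huntingtin. R6/2 HD mice carry a transgene for the exon 1 fragment of mutant human huntingtin, and 3 of them were set beside 3 WT mice. Q150 and Q175 are knock-in lines, in which the expanded repeat sits in the mouse's own huntingtin gene. The Q150 set held 5 WT mice with 7 glutamines on both alleles, 4 HET mice with 150 on 1 allele and 7 on the other, and 4 HOMO mice with 150 on both. The Q175 set held 5 WT mice with 7 on both alleles, 4 HET mice with 175 and 7, and 3 HOMO mice with 175 on both. No animal was treated, and RNA came from the cortex of 1 hemisphere per mouse. The methods give each line an age of its own, lowest for R6/2 and highest for Q175, so line and age cannot be told apart. The titles call every knock-in mouse Q150 and the genotype field names Q175 for every knock-in mutant, so the glutamine numbers placed the mutants and the event list placed the WT mice. HET and HOMO mice of a line were compared with the same WT mice.

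RASL-seq (RNA-mediated oligonucleotide annealing, selection and ligation) counts exon-exon junctions with a pair of probes for each junction. For a cassette exon, the short count is that of the junction that skips the exon and the long count that of an inclusion junction. Exclusion is the percentage of an event's counts that are short counts. Means of exclusion are given ± SD over the mice of a group, and fitted changes ± SE. Different probe pairs can capture with different efficiency, so an exclusion value is not an absolute share of transcripts, and the levels of the 2 Fmr1 events are not set against each other. A mouse had between 2171709 and 5256516 counts in all. The exon 14 event held 89 to 346 short counts and 1884 to 4482 long counts per mouse. The exon 12 event was shallower, with 494 to 1045 short counts and 165 to 358 long counts.

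FMRP binds mRNAs in neurons, holds back the translation of many of them, and travels with them between nucleus, cell body and dendrite. Its pre-mRNA is spliced in several ways. Exon 12 is a cassette that adds residues to the second KH domain, an RNA-binding fold. Exon 14 encodes the nuclear export signal of FMRP, and exon 15, which follows it, has more than 1 acceptor site and leads into the RGG box, another RNA-binding region. Skipping of exon 14 changes the reading frame.

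Both listed junctions lay on chromosome X, at 65958555 to 65961216 and at 65961303 to 65965480. These positions are not on GRCm38 (mm10), the build that the submitters' notes name: of 1853 cassette events, 46 had both ends at annotated GRCm38 exon edges. Each Fmr1 event was therefore placed by its length. A distance of 2661 bases was found for 1 pair of Fmr1 exon edges, from the end of exon 11 to the start of exon 13. A distance of 4177 bases was found for 1 pair, from the end of exon 13 to an acceptor inside exon 15. Both placements gave the same offset of 2746825 bases. They identify the first event as skipping of exon 12 and the second as skipping of exon 14 together with the first 75 bases of exon 15. Which inclusion junction each long count reports was not determined here.

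On GRCm38 the plus-strand exons, numbered as in the annotated transcript Fmr1-201 with its 17 exons, lie at 68705249 to 68705380 (exon 11), 68705861 to 68705923 (exon 12), 68708042 to 68708128 (exon 13), 68710584 to 68710779 (exon 14) and 68712231 to 68712413 (exon 15). The listed acceptor puts the first base of the shortened exon 15 at 68712306. Exon 12 has 63 bases and keeps the frame. The stretch between exon 13 and the listed acceptor has 271 bases, which leaves 1 base over after division by 3. Of 6 annotated protein-coding transcripts, 3 contain exon 12 and 3 join exon 11 to exon 13. Exon 14 is present in all 6, and 2 of the 6 begin exon 15 at the listed acceptor. None of the 13 annotated Fmr1 transcripts joins exon 13 to exon 15.

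**Figure D1:**
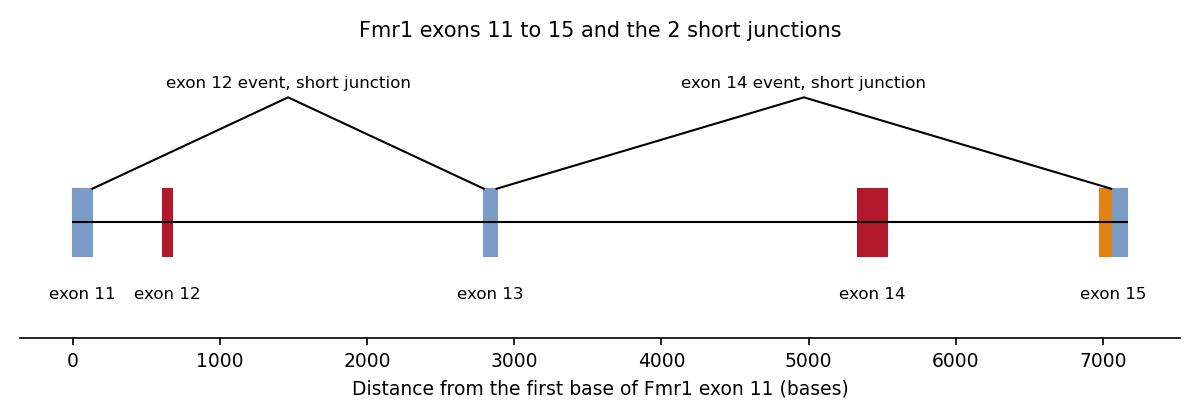
Fmr1 exons 11 to 15 drawn to scale, with the distance from the first base of exon 11 in bases on the horizontal axis; angled lines are the short junctions of both events. Red marks exons 12 and 14, which the short junctions skip, and orange the 75 bases of exon 15 before the listed acceptor.

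The sequences that the 2 short junctions leave out are shown because the measured ratio turns on them. They are read from the annotated transcript Fmr1-201, 5′ to 3′, with the skipped bases in capitals and 15 bases of the exons that the short junction keeps in lower case. The start of exon 15 follows exon 14 directly, and the short junction skips both.
Exon 12: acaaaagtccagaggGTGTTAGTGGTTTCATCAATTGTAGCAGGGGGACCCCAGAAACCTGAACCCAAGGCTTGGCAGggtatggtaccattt
Exon 14: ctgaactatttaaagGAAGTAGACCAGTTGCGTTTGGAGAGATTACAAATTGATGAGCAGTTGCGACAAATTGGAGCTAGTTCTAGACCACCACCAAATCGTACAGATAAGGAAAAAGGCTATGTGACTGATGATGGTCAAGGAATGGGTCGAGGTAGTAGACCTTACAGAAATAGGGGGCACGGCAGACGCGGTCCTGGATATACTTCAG
Start of exon 15: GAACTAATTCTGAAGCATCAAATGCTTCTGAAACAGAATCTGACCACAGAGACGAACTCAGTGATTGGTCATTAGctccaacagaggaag

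The joined sequences across the 2 short junctions follow, with 20 bases of the upstream exon in lower case and 20 of the downstream exon in capitals.
Exon 11 to exon 13: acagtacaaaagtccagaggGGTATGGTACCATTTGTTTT
Exon 13 to the acceptor inside exon 15: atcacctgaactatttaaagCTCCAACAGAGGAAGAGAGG

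Read from the annotated start codon, Fmr1-201 has 614 codons before its stop, 190 of them after the end of exon 13. Without exon 12 the same reading gives 593 codons. With exon 13 joined to the listed acceptor it gives 512 codons, 88 of them after exon 13, and the stop lies in exon 17, the last exon. These are readings of the annotation, since no protein was measured.

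The exon 14 event had mostly long counts in every mouse. In the R6/2 set, exclusion was 4.51%, 4.90% and 4.72% in the 3 WT mice and 7.47%, 8.29% and 9.36% in the 3 HD mice. The groups did not overlap. The means were 4.71% ± 0.20 and 8.37% ± 0.95, a difference of 3.66 percentage points.

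In the Q150 set, exclusion of the exon 14 event was 5.60%, 4.93%, 5.23%, 6.60% and 7.01% in the WT mice. It was 7.02%, 5.94%, 7.64% and 8.02% in the HET mice. It was 11.07%, 9.17%, 9.24% and 8.05% in the HOMO mice. All 4 HOMO mice were above every WT and every HET mouse, while 3 of 4 HET mice were above every WT mouse. The group means were 5.87% ± 0.89, 7.15% ± 0.91 and 9.38% ± 1.25.

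In the Q175 set, exclusion of the exon 14 event was 4.54%, 4.86%, 4.77%, 3.89% and 3.51% in the WT mice. It was 3.19%, 6.46%, 6.15% and 5.89% in the HET mice. It was 8.42%, 5.88% and 5.38% in the HOMO mice. The 3 HOMO mice and 3 of 4 HET mice were above every WT mouse. The remaining HET mouse, replicate 1, had 89 short and 2697 long counts and was below every WT mouse, with a Wilson 95% interval of 2.60% to 3.91% that covers counting error only. Its mouse number is given differently in its title and in its deposited data. The group means were 4.31% ± 0.59, 5.42% ± 1.5 and 6.56% ± 1.63.

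**Figure D2:**
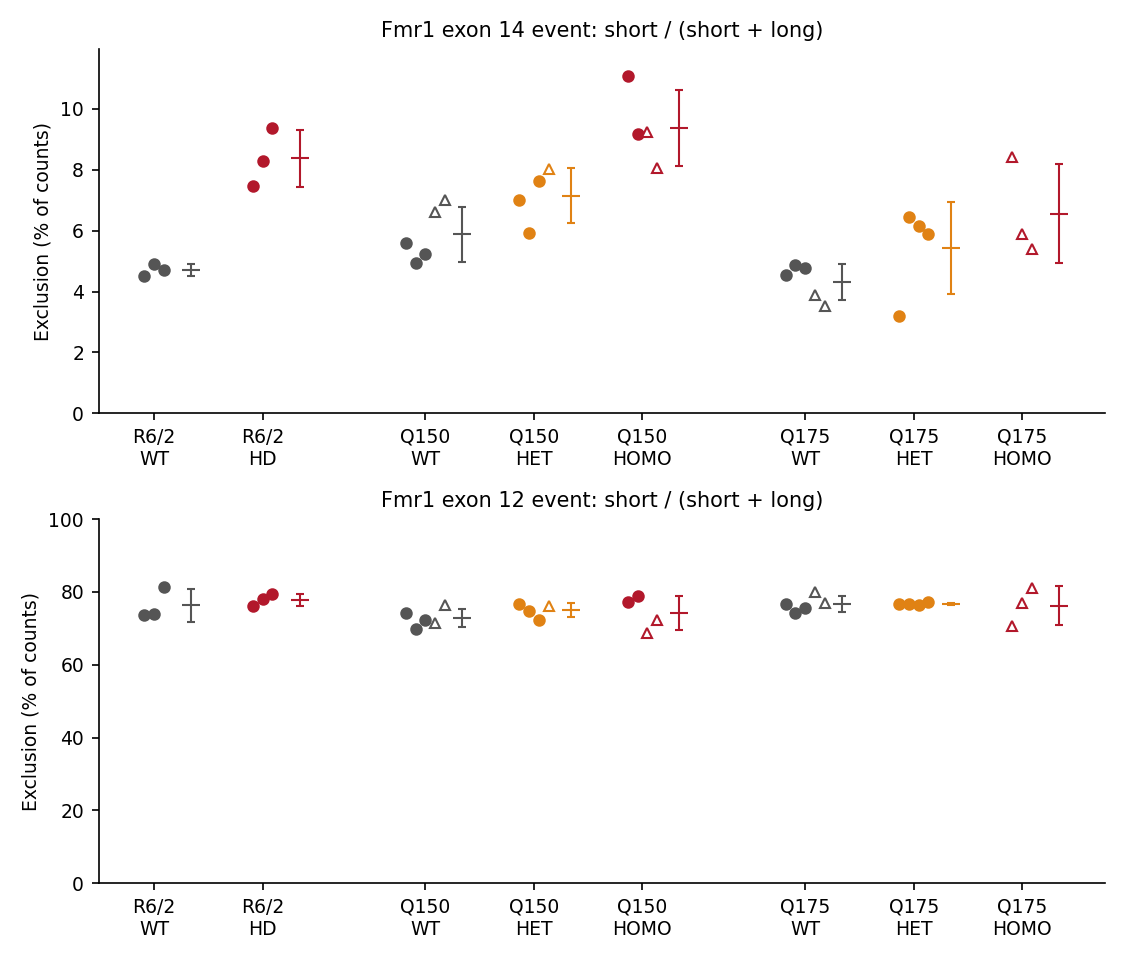
Exclusion of the 2 Fmr1 events in percent of short plus long counts (vertical axis) by group of mice (horizontal axis); each point is a mouse, open triangles are knock-in mice from the higher range of mouse numbers, and bars beside them are the mean ± SD. Exclusion of the exon 14 event was 7.47% to 9.36% in R6/2 HD mice and 4.51% to 4.90% in their WT mice, whereas values of the exon 12 event overlapped in every comparison of whole groups.

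From the highest to the lowest group mean, the order was Q150 HOMO, R6/2 HD, Q150 HET, Q175 HOMO, Q150 WT, Q175 HET, R6/2 WT and Q175 WT. Values of every pair of neighbours in this order overlapped, and the order across lines was not tested.

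The change was fitted as log2 of the short over the long count with limma across all events of a set, and an event was called where its Benjamini-Hochberg adjusted p over that set was under 0.05. A change of 1 on this scale is a doubling of the short to long ratio. In R6/2 HD mice the exon 14 event changed by 0.88 ± 0.15 and was called. In that comparison 21.1% of 1743 events were called with higher exclusion, and the 3 against 3 mice did not overlap upwards for 28.6%. The median of all events was itself 0.18, so the exon 14 event lay 0.70 above it.

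In Q150 HOMO mice the exon 14 event changed by 0.73 ± 0.15 against WT and was called, where 19.8% of 1785 events were called with higher exclusion and 14.8% did not overlap upwards. The median of all events was 0.19, and the exon 14 event lay 0.54 above it. In Q150 HET mice it changed by 0.31 ± 0.15, with a median of 0.10, and was not called; 3.03% of events were. With the WT mice of both knock-in sets as controls it was 0.54 and was called. The Q175 WT mice so added belong to a line of another age. Their mean exclusion was lower, 4.31% against 5.87% in Q150 WT mice. Per mutant allele, over 0, 1 or 2 alleles, the slope was 0.36 ± 0.073, which was called, as were 19.4% of events upwards. HOMO against HET mice gave 0.43 ± 0.16, which was not called, where 1.90% of events were called and 7.17% did not overlap upwards.

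In Q175 HOMO mice the exon 14 event changed by 0.62 ± 0.18 against WT and was called, where 5.60% of 1839 events were called with higher exclusion and 9.79% did not overlap upwards. The median of all events was 0.068, and the exon 14 event lay 0.55 above it. The call rested on single mice: it was lost without HOMO replicate 1, the mouse at 8.42%, where the change was 0.41, without WT replicate 9 (0.59) and without WT replicate 10 (0.55). It was also lost without a variance trend in the fit, at the same size, and with the WT mice of both knock-in sets as controls (0.39). In Q175 HET mice the change was 0.31 ± 0.16, with a median of 0.041, and was not called, where 0.381% of events were. Without HET replicate 1 it was 0.55 and was called. It was 0.20 without HET replicate 2, 0.16 with a term for low or high mouse numbers in the fit and 0.072 with the WT mice of both knock-in sets, and was called in none of these. The slope per mutant allele was 0.31 ± 0.090, called as were 5.66% of events upwards, and it too was not called without the same HOMO mouse (0.22) or either of the same WT mice (0.27 and 0.29), without a variance trend, or with the WT mice of both sets (0.17). HOMO against HET mice gave 0.32 ± 0.19, which was not called, where 0.761% of events were. That value was 0.070 without HET replicate 1 and 0.11 without HOMO replicate 1, and up to 0.45 without another mouse.

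**Figure D3:**
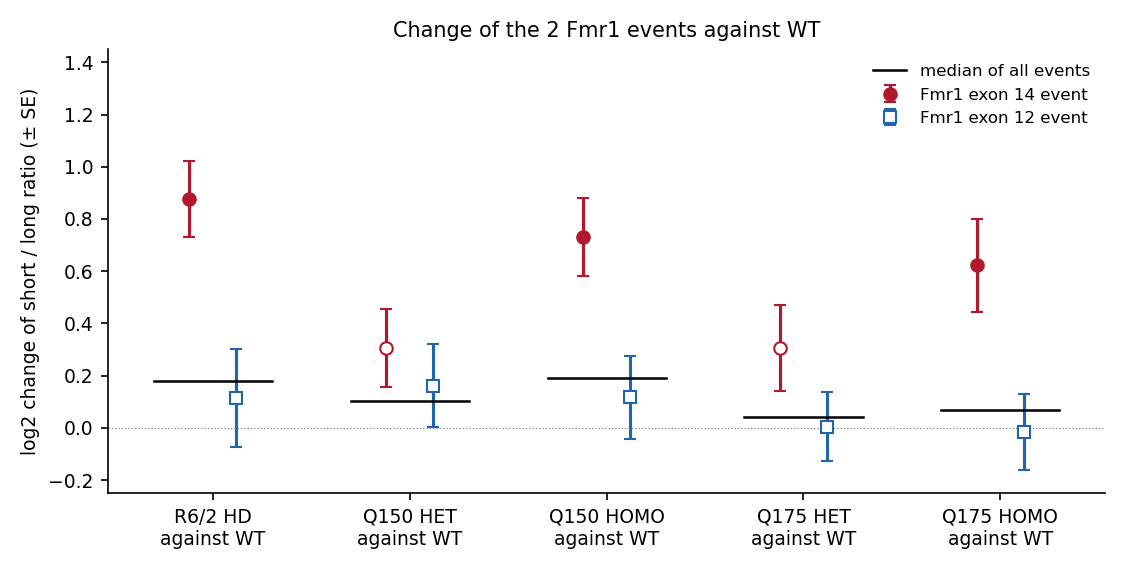
Change of the short to long ratio against WT on the log2 scale (vertical axis) in 5 comparisons (horizontal axis) for the exon 14 event (red circles) and the exon 12 event (blue squares), with bars of ± SE; filled symbols passed an adjusted p of 0.05 over all events and black lines are medians of all events. The exon 14 event lay at 0.88, 0.73 and 0.62 in R6/2 HD, Q150 HOMO and Q175 HOMO mice, and the exon 12 event was never called.

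Leaving out each mouse in turn moved the R6/2 change of the exon 14 event between 0.79 and 0.96 and the Q150 HOMO change between 0.64 and 0.81, with the call kept throughout. The Q175 HOMO change moved between 0.41 and 0.76.

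**Figure D4:**
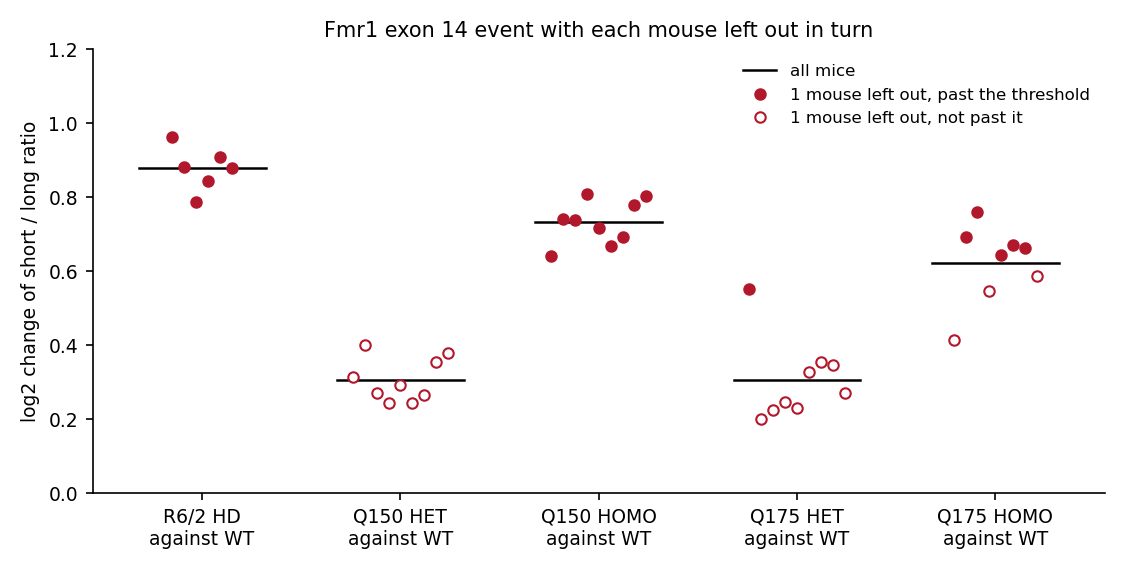
Change of the exon 14 event on the log2 scale (vertical axis) in 5 comparisons with WT (horizontal axis), refitted with each mouse of the 2 groups left out in turn; black lines are the values with all mice, and filled points passed an adjusted p of 0.05 over all events. R6/2 HD and Q150 HOMO points are all filled, Q150 HET points all open, 1 Q175 HET point is filled at 0.55, and 3 Q175 HOMO points are open, the lowest at 0.41.

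The exon 14 event was 1 of 62 events, or 3.73% of the 1662 listed in all sets, called with higher exclusion in R6/2 HD, Q150 HOMO and Q175 HOMO mice alike. Its place among them rests on the Q175 HOMO call, which was lost under 5 of 17 alternative settings. The change did not differ between lines past the threshold. The change in R6/2 HD minus that in Q150 HOMO mice was 0.15 ± 0.27, with a 95% interval of -0.40 to 0.69, where 9.58% of events differed. R6/2 HD minus Q175 HOMO was 0.26 ± 0.28 (interval -0.31 to 0.82), where 11.4% of events differed. Q150 HOMO minus Q175 HOMO was 0.11 ± 0.25 (interval -0.40 to 0.62), where 2.72% differed. The intervals are wide beside the changes themselves.

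The median change of cassettes with a like WT level was above 0 as well. In the R6/2 set, 282 cassette events had a WT exclusion of 2% to 10%. Their median change was 0.25, and 56 of them, counting the exon 14 event itself, changed by as much as it did. In Q150 HOMO mice the median over 290 such events was 0.23, and 52 changed by as much. In Q175 HOMO mice the median over 303 such events was 0.070, and 29 changed by as much.

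The short count was also taken alone, per 1000000 counts of the mouse (CPM). R6/2 HD, Q150 HOMO and Q175 HOMO mice lay apart from their WT mice on the short count as on exclusion. Q150 HET mice lay apart from WT mice on the short count only. Q150 HOMO and HET mice lay apart on exclusion only. In R6/2 the short count was 42.5 to 48.3 CPM in WT mice and 66.0 to 79.8 in HD mice, 1.60 times the WT mean. Over all events, 35.9% did not overlap upwards on this measure. The long count was 859 to 938 CPM in WT and 766 to 818 in HD mice, 0.868 times the WT mean, without overlap, as for 21.9% of events downwards. Short counts were thus higher and long counts lower in the same mice.

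In the Q150 set, short counts of the exon 14 event were 41.4 to 47.8 CPM in WT, 53.7 to 61.9 in HET and 55.9 to 82.8 in HOMO mice. All 4 HET and all 4 HOMO mice were above every WT mouse, at 1.32 and 1.51 times the WT mean; upward separation was found for 6.27% and 16.6% of events. Long counts overlapped between all groups, at 632 to 835 in WT, 664 to 851 in HET and 599 to 665 in HOMO mice. In the Q175 set, short counts were 31 to 38.7 CPM in WT, 26.6 to 50.2 in HET and 44.6 to 57.9 in HOMO mice. The HOMO mice were above every WT mouse, at 1.39 times the WT mean, as were 11.5% of events. Long counts overlapped, at 720 to 903 in WT, 716 to 805 in HET and 629 to 784 in HOMO mice. Short plus long counts of the exon 14 event averaged 949.8 CPM in R6/2 WT and 857 in HD mice, and those of the exon 12 event 309 and 266. Both sums were lower in HD mice without overlap, as were 17.4% of events, and both overlapped in every knock-in comparison. In bulk cortex, fewer cells of a type and less RNA per cell cannot be told apart.

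**Figure D5:**
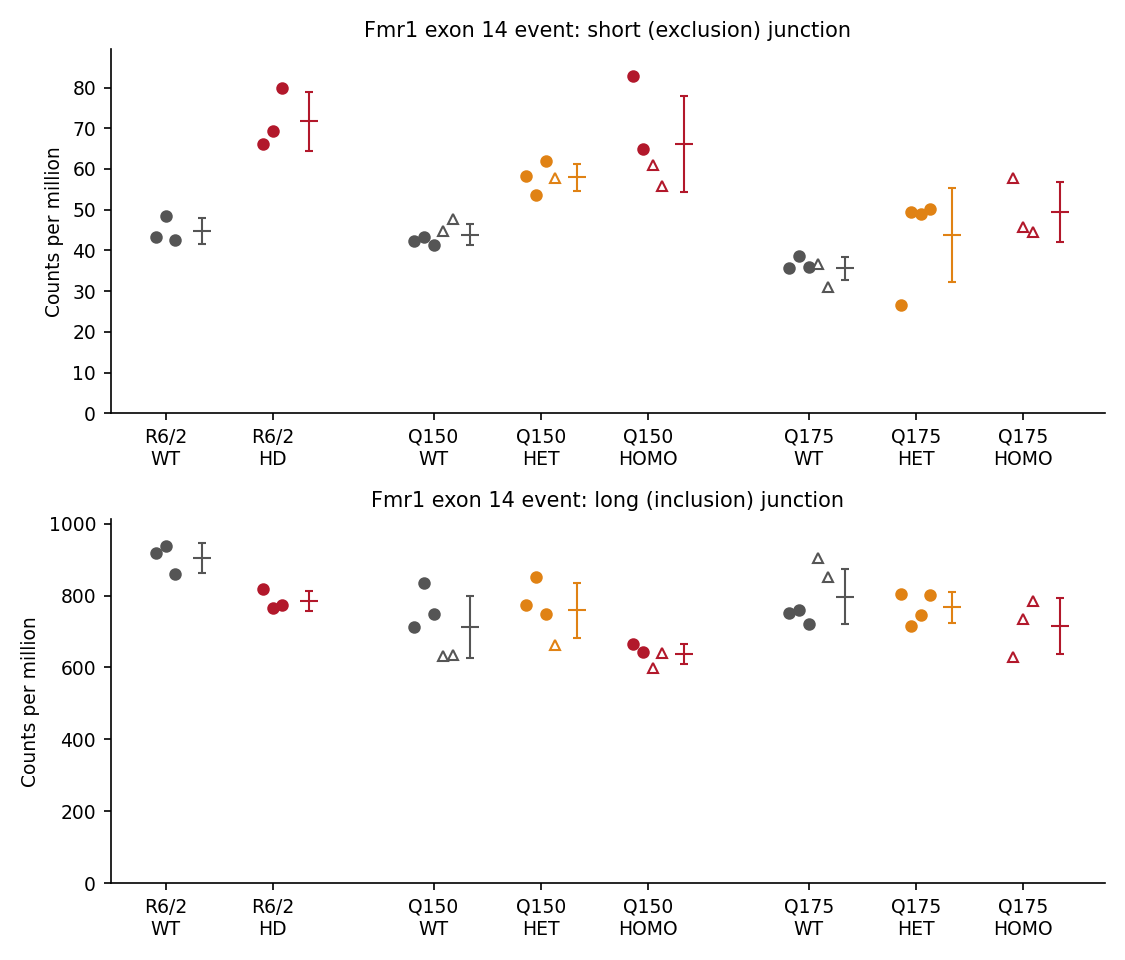
Short (top) and long (bottom) counts of the exon 14 event in CPM (vertical axes) by group (horizontal axes); points are mice, open triangles are knock-in mice from the higher range of mouse numbers, and bars are the mean ± SD. Short counts of R6/2 HD, Q150 HET, Q150 HOMO and Q175 HOMO mice lie above those of their WT mice, while long counts are lower without overlap in R6/2 HD mice only.

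Knock-in mice came from low and high ranges of mouse numbers, split at 100 in the Q150 set and at 1000 in the Q175 set. What the ranges stand for is not given in the sources used here. In the R6/2 set the WT mice are numbered 3, 4 and 6 and the HD mice 860, 868 and 869. Genotype and mouse number cannot be told apart there. In the Q150 set the 2 WT mice of the high range had the highest WT exclusion, 6.80% on average against 5.25% in the 3 of the low range. HOMO mice were above WT mice within both ranges, at 10.12% against 5.25% in the low and 8.64% against 6.80% in the high range, where 35.0% and 38.6% of all events likewise did not overlap upwards. HET mice were above WT mice of their own range as well, at 6.87% against 5.25% for 3 against 3 mice and 8.02% against 6.80% for 1 against 2, as for 16.9% and 44.4% of events. In the Q175 set all HET mice were of the low and all HOMO mice of the high range. The HET mean was 5.42% against 4.72% in 3 WT mice of the low range, with overlap. The HOMO mean was 6.56% against 3.70% in 2 WT mice of the high range, without overlap, as for 22.5% of events. Between Q175 HET and HOMO mice, genotype and range of numbers coincide, so a range term in the fit rests on the WT mice alone. With the range in the fit, the Q175 HOMO against HET change was 0.68 in place of 0.32, and neither was called.

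The exon 12 event had mostly short counts, and whole groups overlapped in every comparison. In R6/2, exclusion was 73.5%, 74.0% and 81.5% in WT mice and 76.2%, 78.1% and 79.4% in HD mice. In Q150 it was 74.3%, 69.9%, 72.4%, 71.4% and 76.4% in WT mice, 76.8%, 74.9%, 72.3% and 76.2% in HET mice, and 77.3%, 79.0%, 68.7% and 72.2% in HOMO mice. In Q175 it was 76.6%, 74.1%, 75.6%, 80.1% and 77.0% in WT mice, 76.6%, 76.8%, 76.5% and 77.2% in HET mice, and 70.7%, 76.8% and 81.2% in HOMO mice. The 4 Q175 HET mice lay within a narrow band, 76.8% ± 0.30, whereas the 3 HOMO mice spread over 76.3% ± 5.28. Over all 31 mice the range was 68.7% to 81.5%, with a mean of 75.6% ± 3.17. Within the ranges of mouse numbers, Q150 HOMO mice were above WT mice in the low range without overlap, at 78.1% against 72.2% for 2 against 3 mice, where 35.0% of events did not overlap upwards. In the high range they averaged 70.4% against 73.9%, with overlap. The Q150 HET and the Q175 mice overlapped with WT mice of their own range.

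No change of the exon 12 event was called. It changed by 0.11 ± 0.19 in R6/2 HD, 0.16 ± 0.16 in Q150 HET, 0.12 ± 0.16 in Q150 HOMO, 0.0042 ± 0.13 in Q175 HET and -0.017 ± 0.14 in Q175 HOMO mice. Each value was within or near its SE of 0, and all but Q150 HET lay under the median of all events. Short and long CPM of the event, each taken alone, also overlapped between the groups of every comparison, while their sum was lower in R6/2 HD mice, at 239 to 285 against 302 to 318 CPM. The exon 12 and exon 14 events did not move together: over the 31 mice, with each set centred on its WT mice, Pearson's r between their log2 ratios was 0.084, and over the 13 WT mice it was 0.024. The mice share a library for both values, and r is a description.

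FMRP works with other proteins of mRNA granules, of translation and of small-RNA silencing. Of 51 such genes, 16 were measured, with 22 events. The test was passed upwards by 3 and downwards by 2 of these events in R6/2 HD mice, where 21.1% and 7.46% of all events passed and the median change was 0.060 against 0.18 over all events. In Q150 HET mice 2 passed upwards and 0 downwards (all events 3.03% and 0.448%). In Q150 HOMO mice 5 passed upwards and 1 downwards (19.8% and 4.09%). The upward count was 8 with the range of mouse numbers in the fit, and 2 without a variance trend or with each mouse centred on its median event. The share of all events called in these other fits is not given here, so their counts are not read as a result about the list. In Q175 HET mice 1 passed upwards and 0 downwards (0.381% and 0.218%), and the upward one was lost with the range in the fit and without a trend. In Q175 HOMO mice 1 passed upwards and 0 downwards (5.60% and 1.47%). The median changes in the knock-in comparisons were 0.072, 0.20, 0.058 and 0.083 in that order, against 0.10, 0.19, 0.041 and 0.068 over all events.

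An event of Ybx1, a cold-shock-domain protein that packages mRNA, passed in all 5 comparisons with WT. Its exclusion was 8.45% ± 0.22 in R6/2 WT and 15.1% ± 1.15 in HD mice, a change of 0.94 ± 0.11. In Q150 it was 9.71% ± 0.52 in WT, 14.3% ± 1.1 in HET and 15% ± 1.03 in HOMO mice. In Q175 it was 9.40% ± 0.61 in WT, 12.9% ± 1.72 in HET and 18.1% ± 2.25 in HOMO mice. Without a variance trend, or with the range of mouse numbers in the fit, its Q175 HET call was lost.

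An event of G3bp2, a stress granule protein, passed in R6/2 HD mice (1.14 ± 0.11) and in Q150 HOMO mice (1.07 ± 0.12). An event of Tnrc6a, which encodes the silencing scaffold GW182, passed in Q150 HET (0.86 ± 0.22) and Q150 HOMO mice (0.63 ± 0.22), and in neither after centring or without a variance trend. An event of Eif4a2, a translation initiation helicase, passed with lower exclusion in R6/2 HD (-0.39 ± 0.13) and Q150 HOMO mice (-0.51 ± 0.15). Its exclusion was 98.4% in WT mice of both sets and 97.9% and 97.7% in the mutants, and neither call was kept without a variance trend.

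Of 73 genes widely cited as sources of mRNAs that FMRP binds, 42 were measured. Of their 64 events in R6/2 HD mice, 21 passed upwards and 5 downwards, where 21.1% and 7.46% of all events passed. The median change was 0.26 against 0.18 over all events. In Q150 HOMO mice 21 of 65 were higher and 6 lower (all events 19.8% and 4.09%), with a median of 0.18 against 0.19 over all events. With each mouse centred on its median event these became 7 higher and 12 lower. Centring moves all events of a mouse alike, and the share of all events called after it is not given here. The turn in balance is therefore not read as particular to this list. In Q150 HET mice 7 were higher and 1 lower (3.03% and 0.448%). These were 0 and 3 after centring, and none was higher without a variance trend, while 5 were lower with the range of mouse numbers in the fit. The share of all events called in these fits is not given here either, so these counts are not read as a result about the list. In Q175 HOMO mice 9 of 64 were higher and 2 lower (5.60% and 1.47%). The higher count fell to 3 with the range in the fit or without a trend, again with no share of all events for those fits. In Q175 HET mice limma called 0 of 64, where 0.381% of all events were called higher and 0.218% lower. Of the 64, 10 had an unadjusted limma p under 0.05 and the quasi-binomial model called 1. Shares of all events for these 2 counts are not given here, so neither is read as a result about the list. The medians were 0.11, 0.062 and 0.036 in Q150 HET, Q175 HOMO and Q175 HET mice. Grin1, Nrxn3 and Mbp, which are on this list, also served as cell type markers below.

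An event of Grin1, the obligatory NMDA receptor subunit, passed in 4 of 5 comparisons, and its exclusion averaged 30.9% ± 3.22 in R6/2 WT against 63.4% ± 6.41 in HD mice. An event of Agap2, a GTPase-activating protein listed as Centg1, passed in the same 4 and changed by 1.70 ± 0.11 in R6/2 HD and 1.16 ± 0.16 in Q150 HOMO mice. For both, the Q150 HET call was lost after centring and without a variance trend. An event of Macf1, a cytoskeletal crosslinker, passed in 3 comparisons and changed by 1.98 ± 0.23 in R6/2 HD mice. Its Q175 HOMO call was lost with the range of mouse numbers in the fit and without a trend. An event of Nrxn3, a presynaptic adhesion molecule, passed with lower exclusion in 4, and its exclusion in the R6/2 set averaged 20.4% ± 3.21 without and 7.45% ± 1.06 with the transgene. Its Q150 HET and Q175 HOMO calls were lost without a trend.

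To find events with a pattern like that of Fmr1, Pearson's r was taken over the 31 mice between log2 ratios centred on the WT mice of each set, over 1620 events of other genes. The mice share libraries and group differences, so r is a description. The events most like the exon 14 event were those of Trp53i11 (r = 0.87), Chd5, a chromatin remodeller of neurons (0.85), Ybx1 (0.83), Sfswap, a splicing regulator listed as Sfrs8 (0.83), and Nadsyn1, an enzyme of NAD synthesis (0.83). The events with the most opposite pattern were those of Nrxn3 (-0.83), Pak3, a kinase of the actin cytoskeleton (-0.80), and Usp14, a deubiquitinase of the proteasome (-0.77). The median r was 0.16. For the exon 12 event the highest r was lower, at 0.55 for Ppfia4, 0.54 for Pikfyve, listed as Pip5k3, 0.52 for Polh, 0.51 for Mtcl1, listed as 1110012J17Rik, and 0.51 for Ank2. Its lowest were -0.55 for Ankhd1, -0.54 for Mgrn1 and -0.50 for Ogt.

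Neuronal markers were present in all mice, as the label of cortex has it. Of 10 markers of neurons, 4 were measured (Camk2b, Grin1, Nrxn3 and Syt1), and their summed counts were lower, without overlap, in R6/2 HD and Q150 HOMO mice. They were 34130 to 38392 CPM in R6/2 WT and 26615 to 31270 in HD mice, and 35230 to 42683 in Q150 WT and 30665 to 35134 in Q150 HOMO mice. In Q150 HET mice they overlapped with WT mice, at 30089 to 38299. In Q175 they overlapped as well, at 31192 to 39481 in WT, 31786 to 37908 in HET and 32638 to 37740 in HOMO mice. Their part in the change of Fmr1 was not tested. Oligodendrocyte markers (Mag and Mbp, with Mobp in the knock-in sets) overlapped between mutant and WT mice in every comparison. In Q175 HET mice they were 7830 to 9079 CPM against 8835 to 11001 in WT mice. The endothelial marker Pecam1 was 33.4 to 57.6 CPM in R6/2 HD and 45.8 to 80.6 in WT mice. It was 49.5 to 131 in Q150 HET, 52.4 to 138 in Q150 HOMO and 42.1 to 97.3 in WT mice. In the Q175 set it was 942 to 1145 in HET, 973 to 1177 in HOMO and 1129 to 1347 in WT mice. The sets do not list the same events, so levels of Pecam1 are not compared between sets. Its ranges overlapped in every comparison with WT, and its part in the change of Fmr1 was not tested. None of the listed astrocyte or microglia markers had an event.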

How the data were processed

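RNA of 31 mouse cortices was measured by RASL-seq. The authors deposited, per mouse, a table of events with a short and a long count; these are whole-number counts written with digit separators, recorded here under the unit other, with no normalization. The junction-counting tools are not given in the sources used here, and the labels name mm10. The lowest count in any table was 4 and no event fell below a mean of 10. Totals per mouse were 2171709 to 4337557 (R6/2, 1743 events), 2970207 to 5219877 (Q150, 1785) and 3351064 to 5256516 (Q175, 1839).

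From these counts, log2((short + 0.5)/(long + 0.5)) was fitted per set with limma 3.58.1 (R 4.3.3), with a variance trend on the counts and Benjamini-Hochberg adjustment over all events of the set at 0.05. Events were required to have a mean of at least 10. The difference between lines was fitted over all 31 mice. Intervals are at 95%. The fit was tested on simulated data. Samples are labelled as separate mice, and replicate tables differed by more than counting noise (47 pairs, chi-square per degree of freedom 4.26 to 26.0). Exon structure and sequences come from the GENCODE annotation on GRCm38. The group sizes follow the labels and match a legend of the study; its methods give other HOMO numbers.

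Named genes were all Fmr1, Fxr1 and Fxr2 events, and the 5 highest and 3 lowest r for each Fmr1 event among events with a mean of at least 50. Per list, events passing in at least 2 comparisons were ranked by mean absolute log2 change, and at most the first 4 were named. Such events numbered 4 in the partner list and 20 in the target list. Alternatives changed the pseudocount, minimum, variance trend, centring, model, spread estimate, number range, WT mice, and left out each mouse. Fmr1 and the lists were chosen with earlier results of these data known. A gene that is not reported here was left out of the marker sums.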

Additional observations from a re-analysis of the deposited data

Results flagged for a closer look

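In the Q175 HET mice, replicate 1 stood apart in the short count of the Fmr1 exon 14 event, at 26.6 counts per 1000000 counts of the mouse (CPM) against 48.9 to 50.2 in the other 3 mice. The gap to its nearest neighbour was 0.944 of the range of the group, above Dixon's critical value at 95% for 4 mice. In all, 30 combinations of event, measure and group were checked and 1 passed; chance passes about 1 in 20. The exclusion of the same mouse came just short, at 0.824, and its long count, 805 CPM, was not apart from the group. Its exon 12 event lay with the other HET mice, at 76.6%. The part of the mismatched mouse number in this value was not tested.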

How the results depend on the processing

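Of the changes of the exon 14 event, those in R6/2 HD and Q150 HOMO mice and the Q150 slope were called under all settings run. With all 10 knock-in WT mice as controls, Q150 HET was called (0.54), Q175 HET was 0.072, and Q175 HOMO (0.39) and the Q175 slope (0.17) were not. This setting joins WT mice of lines that differ in age and in mean exclusion, 5.87% in Q150 and 4.31% in Q175. Without a variance trend the Q175 HOMO change (0.62) and slope (0.31) kept their size and were not called. Leaving out 1 mouse gave 0.20 to 0.55 for Q175 HET, 0.41 to 0.76 for Q175 HOMO and 0.22 to 0.37 for the Q175 slope; which mice ended or made a call is given above, and the cause was not tested. The replicate block, the range of mouse numbers as a term, gave 0.33 and 0.72 for Q150 HET and HOMO and 0.16 and 0.84 for Q175 HET and HOMO, and changed no call of either event; replicate numbers do not pair the mice.

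The exon 12 event was never called, and its sign turned. Centring on the median event gave -0.029 in R6/2 HD, -0.084 in Q150 HOMO, -0.038 for the Q150 slope and -0.042 in Q175 HET mice. All 10 knock-in WT mice gave -0.029 in Q150 HOMO, -0.011 for the Q150 slope, 0.13 in Q175 HOMO and 0.079 for the Q175 slope. Leaving out 1 mouse gave -0.0013 to 0.33 in R6/2 HD, -0.0042 to 0.25 in Q150 HOMO, -0.17 to 0.092 for Q150 HOMO against HET, -0.047 to 0.076 in Q175 HET, -0.22 to 0.20 in Q175 HOMO, -0.22 to 0.20 for Q175 HOMO against HET and -0.090 to 0.083 for the Q175 slope.

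Of the 20 FMRP list counts, 9 moved by over 1.5 times without a variance trend and 6 with centring, as did 4 of the 16 in the knock-in sets with the replicate block. Most of these are given above. Of the others, the fit without a trend left 3 downward target events in R6/2 HD and 0 in Q175 HOMO mice and 0 downward partner events in R6/2 HD and Q150 HOMO mice. Upward partner events in Q150 HET mice were 1 without a trend or with centring. Shares of all events called under these settings are not given here, so the list counts under them are not read as particular to the lists. The exon 14 event rests on 89 to 346 short counts per mouse, which limits how small a change can be seen.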
